A study of Mus musculus with 12 samples.

Results

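The 10 genes described here encode proteins of the contractile apparatus of smooth muscle and its master coactivator. They were chosen by symbol from textbook knowledge of smooth muscle: Acta2, Actg2, Tagln, Cnn1, Lmod1, Myh11, Mylk, Des, Smtn and Myocd. All 10 were among the 24421 gene symbols of the count table and among the 15246 that passed the filter on low counts. RNA was sequenced in bulk from whole lungs of wild-type CD-1 mouse embryos isolated at embryonic day 12.5 and kept as explants in a Matrigel drop. On the following day, Day 0, a first group was taken, and PEG-HCC, a polymer that a two-photon laser can crosslink, was added to the drop as a 20% solution. Day 2 control lungs spent 2 days in this solution with no crosslinking, and Day 2 compression lungs spent the same 2 days inside a crosslinked barrier that limited their growth. Each group held 4 libraries. Control and compression lungs therefore differed in laser crosslinking as well as in restriction, and the 2 effects cannot be told apart. Whether the Day 0 lungs had received polymer before they were taken is not stated, so in each difference from Day 0 age, time in culture and any effect of the polymer cannot be told apart. Whether libraries come from separate animals is not stated in the labels, so p-values cover only the spread between these samples, which may be technical.

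Smooth muscle contracts when calcium activates myosin light chain kinase, which phosphorylates the regulatory light chain of myosin and lets smooth muscle myosin pull on actin filaments. Most genes of the apparatus are transcribed through serum response factor, which binds CArG boxes in their promoters together with myocardin. In the embryonic lung, smooth muscle wraps the airway epithelium as the airways branch, and a separate layer forms around blood vessels. Several of these genes are also active in embryonic heart muscle, in skeletal muscle (Des) or in pericytes and myofibroblasts (Acta2, Tagln), so a bulk level does not belong to a single cell type.

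Total counts ran from 13979871 to 33249761 per library, and the members were covered by 55 to 15347 reads per library. The lung transcription factor Nkx2-1 stood at 158 CPM or more and the mesenchymal factor Foxf1 at 103 CPM or more in every library, where CPM is the count relative to the scaled library size (counts per 1000000 reads). Control replicate 4 also held transcripts of liver and skeletal muscle: albumin (Alb) stood at 638 CPM there and at 2.23 CPM or less elsewhere, and myogenin (Myog) at 4.79 CPM against 0.137 CPM or less. Leaving it out left 5 of 10 members called between controls and Day 0, the same number as with it. Compression replicates 2 and 3 are both numbered 13 in the labels. Over the genes tested these 2 libraries differed by a chi-square of 4.03 per degree of freedom, above the value of about 1 that sampling noise alone gives and the lowest of 18 replicate pairs (the others ranged from 7.28 to 121). They were counted as separate libraries, and summing them changed the calls of Lmod1 and Mylk only.

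Promoters of 6 of the 10 members were found by symbol among the RefSeq promoters of GRCm38.p6. Each covers 250 bases before to 50 after a transcript start that RefSeq gives for the gene. For all of these genes but Des this start lies inside the GENCODE gene whose coordinates are given with the gene. For Smtn and Mylk the whole window lies inside it, so other starts upstream are not covered. In Acta2 the marked elements lie inside the GENCODE gene. The promoters of Acta2, Lmod1 and Smtn are shown because these genes cover the 3 outcomes between Day 0 and Day 2: a level that did not pass the test, a rise and a fall. They are written 5′ to 3′ on the gene's strand, at chr19:34255324-34255623 (minus strand), chr1:135324563-135324862 (plus strand) and chr11:3539243-3539542 (minus strand). Capitals mark CArG boxes, with at most 1 G or C allowed in the A/T stretch, and the MCAT element CATTCC, read on both strands (GGAATG on the other), which is the binding motif of TEAD factors.
Acta2: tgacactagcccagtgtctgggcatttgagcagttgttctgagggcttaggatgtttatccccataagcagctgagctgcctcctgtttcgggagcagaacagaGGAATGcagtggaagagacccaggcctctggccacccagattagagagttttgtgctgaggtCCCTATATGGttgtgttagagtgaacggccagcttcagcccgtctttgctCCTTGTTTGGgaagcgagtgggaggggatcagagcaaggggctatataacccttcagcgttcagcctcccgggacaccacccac
Lmod1: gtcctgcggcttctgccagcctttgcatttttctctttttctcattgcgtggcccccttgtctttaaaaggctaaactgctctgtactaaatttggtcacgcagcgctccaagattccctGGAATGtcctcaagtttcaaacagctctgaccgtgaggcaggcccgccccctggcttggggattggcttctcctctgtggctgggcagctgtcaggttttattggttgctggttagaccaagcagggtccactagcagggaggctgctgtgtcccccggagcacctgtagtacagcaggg
Smtn: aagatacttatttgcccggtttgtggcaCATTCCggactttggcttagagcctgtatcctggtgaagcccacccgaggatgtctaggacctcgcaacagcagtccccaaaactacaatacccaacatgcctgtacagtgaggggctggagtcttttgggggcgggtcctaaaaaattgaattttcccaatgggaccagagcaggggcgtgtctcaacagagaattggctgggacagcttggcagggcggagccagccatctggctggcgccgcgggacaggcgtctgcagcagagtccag
The Acta2 promoter held 2 CArG-like boxes, starting 84 and 34 bases before this RefSeq start, each with 1 G or C in the A/T stretch, and 1 MCAT element 146 bases before it. Lmod1, Smtn and Mylk each held 1 MCAT element (130, 222 and 158 bases before the start) and no CArG-like box. Cnn1 and Des held neither within this window. Over all 32851 promoters of the same length, 9.98% held at least 1 such CArG-like box, 0.822% held 2 or more and 14.7% held an MCAT element. These matches describe letters in a window, and no binding was measured.

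Between Day 0 and Day 2 the members split in both directions. In Day 2 controls, Tagln, Lmod1 and Mylk rose and Actg2 and Smtn fell, so that 5 of 10 members passed an adjusted p of 0.05 (edgeR's quasi-likelihood test, Benjamini-Hochberg over all genes tested), against 40.2% of all 15246 genes (22.6% higher and 17.6% lower). Under compression the same 5 genes passed the test against Day 0 in the same directions, and Myocd fell as well, which made 6 of 10 members against 49.1% of all genes (26.6% higher and 22.5% lower). Both shares lay near those of all genes. The libraries of the 2 groups did not overlap for 4 members in controls, against 37.9% of all genes, and for 3 members under compression, against 43.0%. The 2 comparisons share the Day 0 libraries, so their values stand side by side and are not independent. The median log2 fold change of the members was -0.22 in controls and -0.15 under compression, against 0.02 for all genes in both. The median size of the change, taken without its sign, was 0.41 and 0.43 for the members, against 0.25 and 0.29 for all genes.

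**Figure D1:**
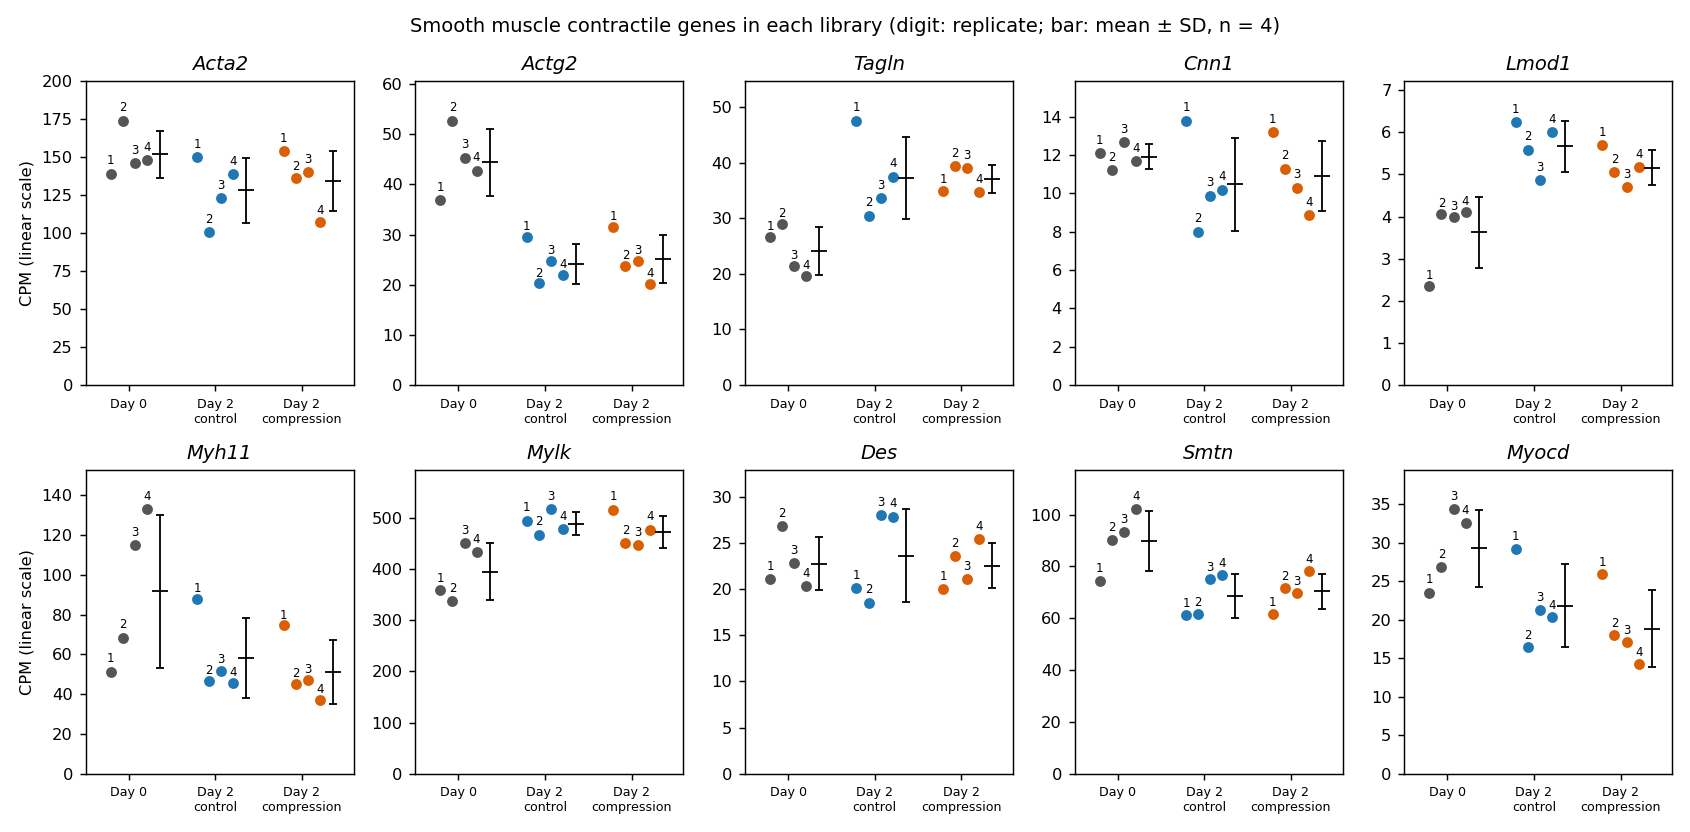
Level of each of the 10 genes (CPM, linear axis from 0) in every library of the 3 groups. Each point is a library labelled with its replicate number, and the bar is the mean ± SD (n = 4). Day 2 values of Actg2 lie below and those of Tagln and Lmod1 lie above all Day 0 values, and control and compression libraries overlap for every gene.

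Of the 2 smooth muscle actins among the thin filament genes, Actg2 fell and Acta2 did not pass the test. Acta2 (chr19:34241090-34255590, minus strand, GRCm38), the vascular and airway smooth muscle actin, stood at 139, 174, 146 and 148 CPM in Day 0 replicates 1 to 4, at 150, 101, 123 and 139 CPM in controls and at 154, 136, 140 and 107 CPM under compression. The 3 groups overlapped, and neither the control difference (log2 fold change -0.24 ± 0.13 SE, adjusted p = 0.147) nor the compression difference from Day 0 (-0.18 ± 0.13, adjusted p = 0.268) passed the test, although the control difference did with limma-voom (-0.28, adjusted p = 0.0403). Actg2 (chr6:83512905-83536265, minus strand), the enteric smooth muscle actin, stood at 36.8, 52.7, 45.3 and 42.7 CPM at Day 0, at 29.5, 20.3, 24.8 and 21.9 CPM in controls and at 31.6, 23.8, 24.8 and 20.2 CPM under compression. All 8 Day 2 libraries lay below all 4 Day 0 libraries. Actg2 fell 1.83-fold in controls (log2 fold change -0.87 ± 0.15, adjusted p = 0.000443) and 1.76-fold under compression (-0.82 ± 0.15, adjusted p = 0.000518). In bulk RNA, fewer cells of a type and less RNA per cell cannot be told apart. Of the 50-base windows of the Acta2 transcript, 0.352% occur in another transcript, mostly of Actg1 and its pseudogenes, and for Actg2 none do.

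Tagln (chr9:45929619-45936058, minus strand), which encodes the actin-binding protein transgelin (SM22), moved the other way. It stood at 26.6, 29.0, 21.5 and 19.7 CPM at Day 0, at 47.6, 30.5, 33.6 and 37.5 CPM in controls and at 34.9, 39.5, 39.1 and 34.8 CPM under compression. Every Day 2 library lay above every Day 0 library, and Tagln rose 1.55-fold in controls (log2 fold change 0.63 ± 0.14, adjusted p = 0.00301) and 1.54-fold under compression (0.62 ± 0.14, adjusted p = 0.00251). An antisense gene model, Gm48529, covers 62.4% of the Tagln exons and Pcsk7 covers 5.43%. No source used here gives the strand setting of the counts, so reads from these partners cannot be told apart from Tagln.

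Cnn1 (chr9:22099216-22109630, plus strand) encodes calponin 1, which binds actin and dampens myosin activity. It stood at 12.1, 11.2, 12.7 and 11.7 CPM at Day 0, at 13.8, 7.99, 9.89 and 10.2 CPM in controls and at 13.2, 11.3, 10.3 and 8.87 CPM under compression. Day 0 was the tightest group (SD 0.617 CPM, against 2.43 and 1.80), the groups overlapped, and no difference from Day 0 passed the test (log2 fold change -0.19 ± 0.16, adjusted p = 0.357, in controls and -0.13 ± 0.16, adjusted p = 0.5, under compression).

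Lmod1 (chr1:135324807-135368065, plus strand) encodes leiomodin 1, which nucleates actin filaments in smooth muscle, and was the member with the lowest level. It stood at 2.35, 4.06, 3.99 and 4.10 CPM at Day 0, at 6.24, 5.59, 4.86 and 6.0 CPM in controls and at 5.70, 5.07, 4.70 and 5.18 CPM under compression. All Day 2 libraries lay above all Day 0 libraries, and the low value of Day 0 replicate 1 widened the Day 0 range. Lmod1 rose 1.57-fold in controls (log2 fold change 0.65 ± 0.18, adjusted p = 0.0096) and 1.43-fold under compression (0.51 ± 0.17, adjusted p = 0.0262). The control result passed the test with any single library left out. The compression result did not pass without Day 0 replicate 1 (adjusted p = 0.0742), without compression replicate 1 (0.0733), 2 (0.061) or 4 (0.0579), or with compression replicates 2 and 3 summed (0.0502).

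Of the myosin genes, Mylk rose and Myh11 did not pass the test. Myh11 (chr16:14194535-14291372, minus strand), the smooth muscle myosin heavy chain and the most specific marker of the differentiated cell, stood at 51.2, 68.3, 115 and 133 CPM at Day 0, at 87.9, 46.7, 51.8 and 45.7 CPM in controls and at 74.6, 45.1, 47.4 and 37.3 CPM under compression. Of the 8 Day 2 libraries 3 lay within the Day 0 range and 5 below it, and replicate 1 was the highest of its group at Day 2 in both controls and compression. The log2 fold change from Day 0 was -0.66 ± 0.33 in controls (adjusted p = 0.13) and -0.85 ± 0.33 under compression (adjusted p = 0.0503), and neither passed the test. Single libraries decided this: the control difference passed without Day 0 replicate 1 (adjusted p = 0.0361) or control replicate 1 (0.0478), and the compression difference passed without Day 0 replicate 1 (0.0122), Day 0 replicate 2 (0.0431) or compression replicate 1 (0.0202). The compression difference also passed with DESeq2 size factors (0.0442), with DESeq2 (0.0391) and with limma-voom (0.000565), and the control difference with limma-voom (0.00706). Over Day 0 replicates 1 to 4 the summed level of 9 mural cell and pericyte genes was 466, 505, 632 and 733 CPM, in the same order as Myh11, and that of 7 endothelial genes was 284, 317, 356 and 477 CPM. The sum of 8 epithelial genes was 1040, 1070, 1110 and 1150 CPM over the same libraries. This order was therefore not particular to the mural and endothelial lists. At Day 2 neither the mural nor the endothelial sum followed the order of Myh11. The mural sum was 339, 332, 423 and 405 CPM in controls and 341, 368, 354 and 443 CPM under compression. The endothelial sum was 49.4, 70.9, 85.0 and 98.4 CPM in controls and 79.1, 86.8, 87.9 and 68.6 CPM under compression. The part of these cell types in the spread of Myh11 was not tested.

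Mylk (chr16:34745210-35002420, plus strand) encodes myosin light chain kinase and, from an internal promoter, telokin. It stood at 358, 338, 450 and 433 CPM at Day 0, at 494, 466, 516 and 477 CPM in controls and at 515, 450, 446 and 476 CPM under compression. All controls lay above all Day 0 libraries, while compression replicates 2 and 3 lay just under Day 0 replicate 3. Mylk rose 1.24-fold in controls (log2 fold change 0.31 ± 0.09, adjusted p = 0.0151) and 1.19-fold under compression (0.26 ± 0.09, adjusted p = 0.0296), the smallest changes among those that passed. The control result did not pass without Day 0 replicate 1 (adjusted p = 0.0657) or control replicate 3 (0.0544). The compression result did not pass without Day 0 replicate 1 (0.13), Day 0 replicate 2 (0.0939) or compression replicate 1 (0.116), 2 (0.057) or 4 (0.0738), nor with compression replicates 2 and 3 summed (0.0527), with limma-voom (0.0866) or with only the 8 libraries compared (0.058).

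Of the remaining structural genes, desmin did not pass the test and smoothelin fell. Des (chr1:75360329-75368579, plus strand), the intermediate filament protein of all muscle types, stood at 21.1, 26.8, 22.8 and 20.3 CPM at Day 0, at 20.1, 18.5, 28.0 and 27.8 CPM in controls and at 20.0, 23.6, 21.1 and 25.4 CPM under compression. The groups overlapped throughout, with log2 fold changes of 0.05 (95% interval -0.25 to 0.36, adjusted p = 0.794) and -0.01 (-0.31 to 0.29, adjusted p = 0.972). Smtn (chr11:3517523-3540612, minus strand), whose product binds actin in contractile smooth muscle cells, stood at 74.3, 90.0, 93.2 and 102 CPM at Day 0, at 61.2, 61.5, 75 and 76.6 CPM in controls and at 61.7, 71.5, 69.8 and 78.3 CPM under compression. Only Day 0 replicate 1 lay within the Day 2 range, and the other 3 Day 0 libraries lay above every Day 2 library. Smtn fell 1.31-fold in controls (log2 fold change -0.39 ± 0.11, adjusted p = 0.0104) and 1.28-fold under compression (-0.35 ± 0.11, adjusted p = 0.0145). The opposite-strand model Gm11946 covers 16.3% of the Smtn exons.

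Myocd (chr11:65176561-65269989, minus strand) encodes myocardin, the coactivator of serum response factor in smooth and heart muscle. It stood at 23.5, 26.8, 34.3 and 32.5 CPM at Day 0, at 29.2, 16.4, 21.3 and 20.3 CPM in controls and at 25.9, 18.0, 17.1 and 14.3 CPM under compression. At Day 2, replicate 1 of both groups lay within the Day 0 range and the other 6 libraries lay below it. Myocd fell 1.56-fold under compression (log2 fold change -0.64 ± 0.20, adjusted p = 0.0171). In controls the difference was -0.43 ± 0.20 and did not pass (adjusted p = 0.105), but did so without control replicate 1 (0.0232) and with limma-voom (0.00613). That compression passed and controls did not does not establish a difference between them: the direct comparison gave -0.22 ± 0.20 (95% interval -0.65 to 0.21).

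**Figure D2:**
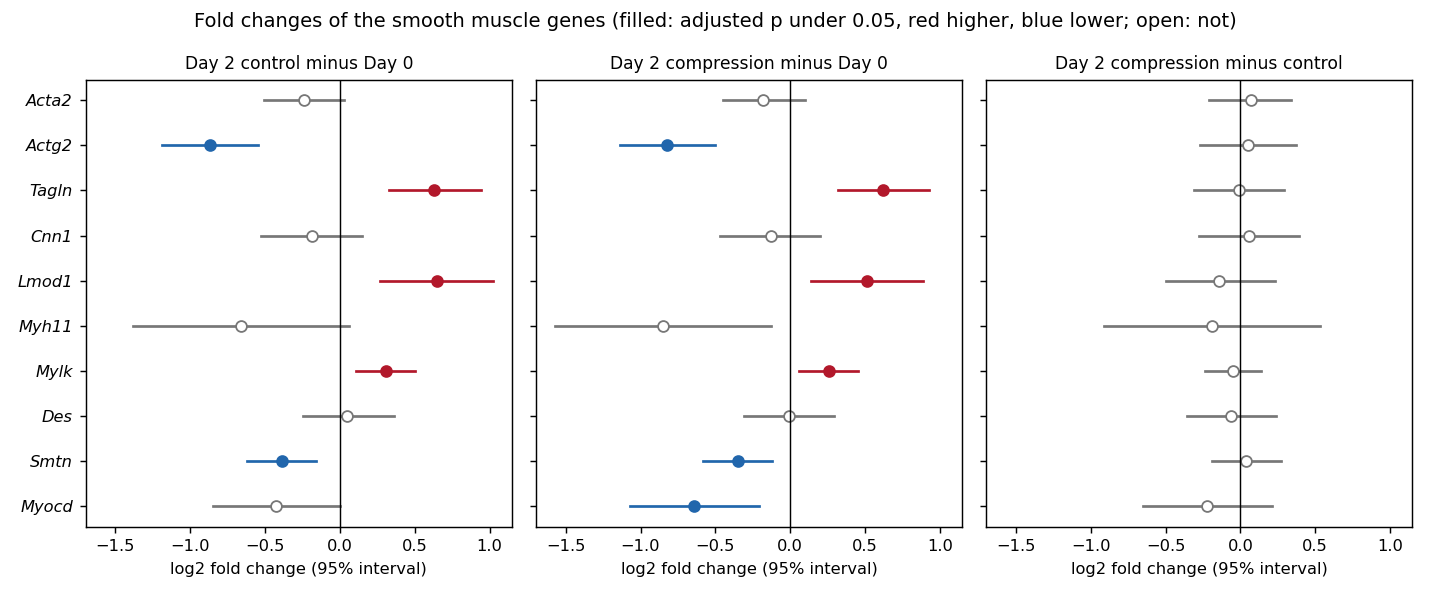
Log2 fold change (horizontal axis) with its 95% interval for each member in the 3 comparisons, from the edgeR fit. Filled points passed an adjusted p of 0.05 (red higher, blue lower): 5 of 10 in controls and 6 of 10 under compression against Day 0, and 0 of 10 between compression and control.

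The comparison of compression with control asks whether restricted growth together with laser crosslinking altered these genes at the same age. None of the 10 members passed the test, and over all genes the share called was also 0.0%. None of the members had an unadjusted p under 0.05, against 12.1% of all genes (1839), and for none did the groups stop overlapping, against 5.77% of all genes. Log2 fold changes ran from -0.22 (Myocd) to 0.07 (Acta2), with a median size of 0.06 against 0.11 for all genes. Adjusted p-values ran from 0.654 to 0.983.

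The 95% intervals give the sizes of change that these libraries do not exclude. For Mylk the interval was narrowest, from -0.24 to 0.14 on the log2 scale, which is 0.845 to 1.10 times the control level. For Tagln it ran from -0.31 to 0.29 and for Acta2 from -0.21 to 0.34. For Myh11 it was widest, from -0.91 to 0.53, which is 0.533 to 1.45 times the control level. DESeq2 called 69 genes and limma-voom with quality weights 1958 genes in this comparison, and neither called a member. Over all genes edgeR called 53 without control replicate 4, 19 without compression replicate 1, and 1 when either control replicate 3 or compression replicate 4 was left out, again with no member among them.

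Compared per length (CPM per kb of exon), Acta2 led in every group, with 69.2 ± 6.85 at Day 0, 58.5 ± 9.66 in controls and 61.2 ± 9.12 under compression (mean ± SD, n = 4). Mylk came second with 35.1, 43.4 and 41.9, and at the exon lengths used no library of one gene reached the other in any group. At Day 0 Actg2 followed with a mean of 28.5 (range 23.7 to 33.8, overlapping Mylk), then Smtn with 20.5 (17.0 to 23.3, below Actg2), Tagln with 12.2 (9.91 to 14.6) and Myh11 with 12.1 (6.73 to 17.5), whose ranges overlapped. Des followed with 6.06 (5.42 to 7.15), overlapping Myh11 and above Myocd with 4.56 (3.66 to 5.34) and Cnn1 with 4.36 (4.11 to 4.64), which overlapped. Lmod1 was lowest with 0.918. At Day 2 Tagln came next with 18.8 in controls and 18.7 under compression. Its range in controls (15.3 to 23.9) overlapped those of Smtn (14 to 17.5) and Actg2 (13 to 19.0). Myh11, Des, Cnn1, Myocd and Lmod1 followed in both groups, from 7.63 down to 1.44 in controls and from 6.72 down to 1.31 under compression. Myh11 overlapped Des and Cnn1 overlapped Myocd, and in controls Des also overlapped Cnn1. Exon length was taken as the union over all annotated exons, so genes with short isoforms such as the telokin form of Mylk are placed only roughly. For Mylk this union holds 11263 bases, while its longest coding transcript holds 7824 (2196 and 2035 for Acta2). The lead of Acta2 over Mylk and their separation therefore depend on the length used.

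The composition of the set was also read within each library, as the ratio of each member's count to that of Acta2, a measure added after the data had been seen. It does not depend on how library sizes are scaled. Actg2 had 0.265, 0.303, 0.309 and 0.287 reads per Acta2 read at Day 0, 0.197, 0.200, 0.202 and 0.157 in controls and 0.205, 0.175, 0.177 and 0.189 under compression. Tagln had 0.191, 0.167, 0.147 and 0.133 at Day 0, 0.317, 0.301, 0.272 and 0.270 in controls and 0.226, 0.290, 0.279 and 0.326 under compression. For both genes all Day 2 libraries lay on one side of all Day 0 libraries. The same held for Lmod1 (0.0169 to 0.0276 at Day 0, 0.0394 to 0.0553 in controls, 0.0335 to 0.0486 under compression) and for Mylk (1.95 to 3.08, 3.29 to 4.6 and 3.17 to 4.46).

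On the log2 scale the ratio in controls differed from Day 0 by -0.63 for Actg2, 0.87 for Tagln, 0.93 for Lmod1 and 0.57 for Mylk, and under compression by -0.64, 0.82, 0.73 and 0.45. Each of these 8 differences had a two-sided exact permutation p of 0.0286, the smallest that 4 against 4 libraries can give, and an adjusted p of 0.0964 over the 27 ratios tested, so none passed the correction. The ratio of Cnn1 to Acta2 differed from Day 0 by 0.03 in controls and 0.04 under compression. The ratio of Smtn, whose level fell, differed by -0.14 and -0.16 with overlapping groups (exact permutation p = 0.514 for both, adjusted p = 0.694). Between compression and control all 9 ratios overlapped. Myocd came closest to a separation (-0.28, exact permutation p = 0.0857, adjusted p = 0.231).

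**Figure D3:**
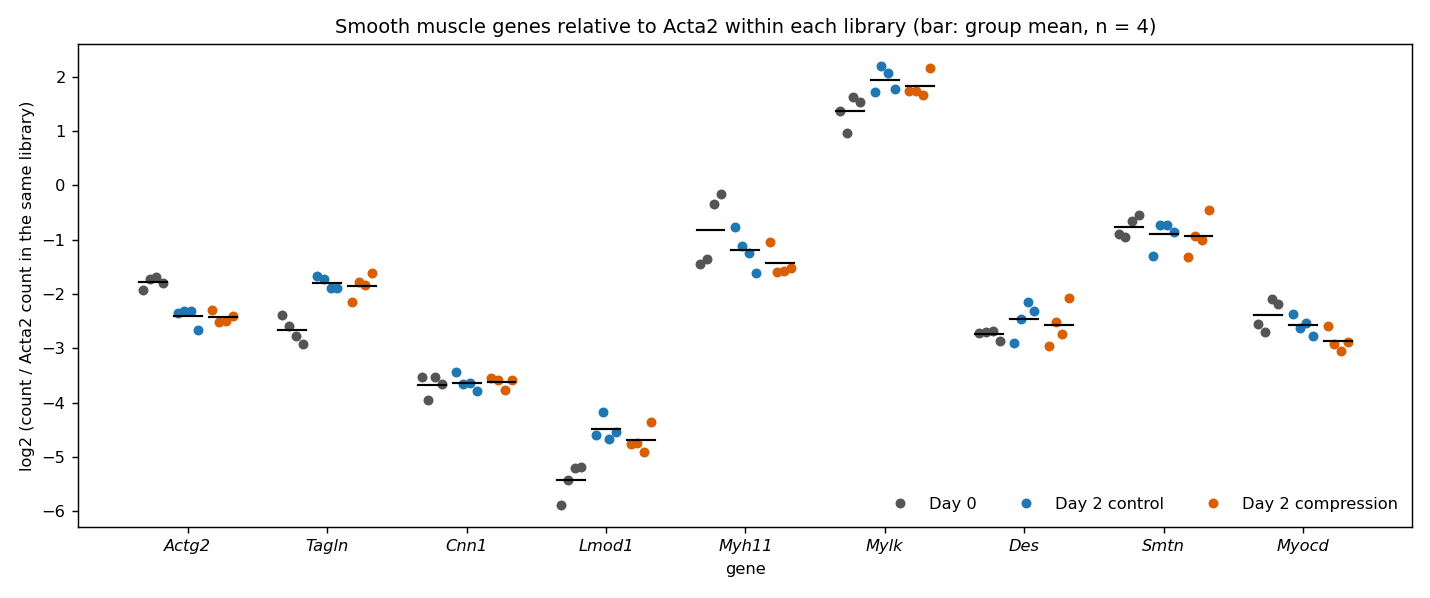
Log2 ratio of each member's count to the Acta2 count (vertical axis) in each library; points are libraries in replicate order and bars are group means (n = 4). Actg2 lies lower and Tagln, Lmod1 and Mylk lie higher in all Day 2 libraries than in all Day 0 libraries, and compression and control overlap for all 9 genes.

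Within groups, some members varied together. Deviations of log2 CPM from the group mean were compared over the 12 libraries for the 45 pairs of members. The genes of a pair share the depth and dissection of each library. The median correlation was 0.32, and 30 pairs were positive and 14 negative. It was highest for Myh11 with Myocd (0.90), Cnn1 with Myocd (0.88), Acta2 with Actg2 (0.84) and Actg2 with Myocd (0.82). It was lowest for Tagln with Mylk (-0.59) and Myh11 with Des (-0.41).

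Some Day 2 libraries deviated for several of these genes together. Control replicate 1 and compression replicate 1 were above their group means for Myocd by 0.45 and 0.49, for Myh11 by 0.65 and 0.59, for Cnn1 by 0.43 and 0.28 and for Actg2 by 0.30 and 0.35 on the log2 scale. Control replicate 2 and compression replicate 4 lay below their groups for the same genes (Myocd by -0.38 and -0.36). At Day 0, Myh11 deviated by -0.74, -0.32, 0.43 and 0.64 in replicates 1 to 4, whereas Cnn1 stayed within 0.09 of its mean. The summed level of 6 neuronal genes was also highest in control replicate 1 (91.2 CPM, other controls 56.2 to 74.4) and in compression replicate 1 (102 CPM, others 67.7 to 76.9). At Day 0 this sum was 53.0, 67.0, 63.5 and 46.3 CPM in replicates 1 to 4. Other lists also stood out in the same 2 libraries. The sum of 26 further smooth muscle genes was highest there (3460 and 3260 CPM). Those of 12 mesenchymal genes (6070 and 6870 CPM) and 16 general actomyosin genes (7070 and 7210 CPM) were lowest. The part of other cell types in this variation was not tested.

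**Figure D4:**
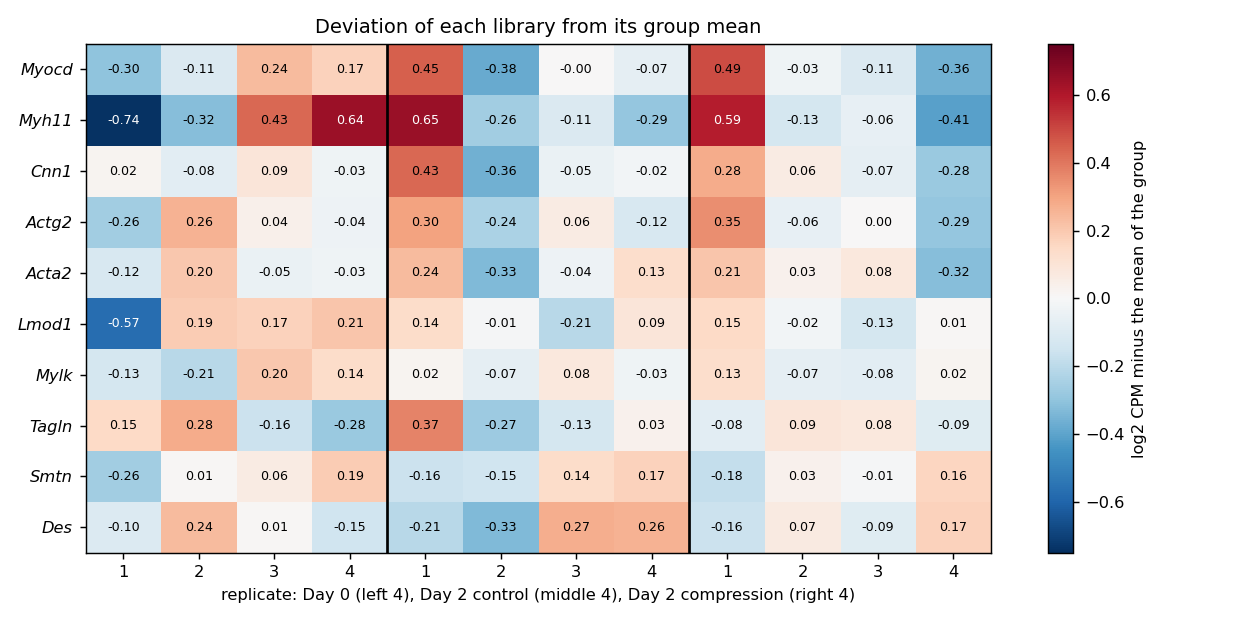
Deviation of log2 CPM from the group mean for each member (vertical axis) in each library (horizontal axis, replicates 1 to 4 of each group); red is above and blue below the mean. Myocd, Myh11, Cnn1, Actg2 and Acta2 are high in replicate 1 of both Day 2 groups, while Smtn and Des are low there.

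Of 13764 other genes with a mean of at least 1 CPM, those whose log2 CPM over the 12 libraries was most like the mean of the members (Pearson's r, libraries of all 3 groups) were 6820431F20Rik (0.85), E130309D14Rik (0.83), Dpp7 and Lenep (0.81 each), Tchp (0.80) and Wdfy2 (0.79). None of these 6 passed the test between controls and Day 0 (adjusted p from 0.251 to 0.955). Members that rose and members that fell against Day 0 offset each other in this mean. It followed Myocd (r = 0.82), Acta2 (0.81), Cnn1 (0.78), Myh11 (0.75) and Actg2 (0.63) more than Smtn (0.37). It hardly followed Des (0.18), Lmod1 (0.13), Mylk (0.06) and Tagln (-0.11), so likeness to it is not likeness to every member. With group means removed, the most alike were Mok (0.96), Dcdc2a (0.95), Ildr2 and Kndc1 (0.94 each), Eno4 (0.93) and Gm166 (0.92). Kndc1, for example, was highest in control replicate 1 (12.9 CPM, other controls 3.5 to 9.24) and compression replicate 1 (16.3 CPM, others 10.4 to 13.4). Of these 6, 5 (all but Mok) rose in controls, with log2 fold changes from 0.66 to 3.16.

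Other genes of smooth muscle also moved in both directions. Counts in this and the following lists stand against all genes, of which 22.6% rose and 17.6% fell in controls. Under compression 26.6% of all genes rose and 22.5% fell. Of 26 further genes of the contractile cell, its dense plaques and cytoskeleton, 7 rose, 8 fell and 11 did not pass in controls against Day 0, with a median log2 fold change of -0.02, and 9 rose, 10 fell and 7 did not pass under compression. Pgm5, a component of adherens-type junctions in muscle, fell (log2 fold change -0.90, adjusted p = 1.04e-06), as did the integrin subunits Itga8 (-0.76, adjusted p = 7.36e-06) and Itga5 (-0.66, adjusted p = 1.53e-05). Fhl1, a LIM domain protein of muscle, rose (0.90, adjusted p = 3.7e-06). Against control, none of the 26 passed under compression, and 2 had an unadjusted p under 0.05: the actin crosslinker Flna (-0.22, adjusted p = 0.377) and Csrp1 (0.23, adjusted p = 0.377).

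Among 15 regulators of the smooth muscle program, 1 rose and 5 fell in controls, and 1 rose and 6 fell under compression. The shares that passed lay near those of all genes (40.2% and 49.1%). The factor that rose was Klf5, from 16.6 ± 3.74 CPM at Day 0 to 46.7 ± 2.02 CPM in controls (log2 fold change 1.49, adjusted p = 3.09e-06) and 58.4 ± 7.13 CPM under compression. Klf5 is also expressed by airway epithelium, 5 of whose 8 markers rose in controls, and the part of epithelial cells in its rise was not tested. Heyl, a Notch target of mural cells, fell (-1.89, adjusted p = 9.42e-05), as did Mkl2, which encodes the myocardin-related factor MRTF-B (-0.46, adjusted p = 0.0011), and Foxf1 (-0.48, adjusted p = 0.00113). Against control, Klf5 (0.32, adjusted p = 0.38) and Mir143hg, the host gene of the smooth muscle microRNAs miR-143 and miR-145 (-0.45, adjusted p = 0.38), had an unadjusted p under 0.05 under compression and did not pass.

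Of 23 genes of calcium handling, contractile receptors and relaxation, 22 were tested, since Pln, phospholamban, reached at most 0.103 CPM. In controls 6 rose, 4 fell and 12 did not pass, and under compression 4 rose, 4 fell and 14 did not pass. Over all genes 40.2% passed in controls and 49.1% under compression. Rgs2, which limits signalling of contractile receptors, rose from 49.5 ± 9.44 CPM at Day 0 to 160.0 ± 30.6 CPM in controls (log2 fold change 1.70, adjusted p = 3.8e-05). The muscarinic receptor Chrm2 rose as well (0.91, adjusted p = 0.000177). The relaxation pathway genes Gucy1a3, a subunit of soluble guanylate cyclase (-0.67, adjusted p = 2.71e-05), and Prkg1, the kinase it activates through cyclic GMP (-0.56, adjusted p = 0.00184), fell in controls. Under compression Gucy1a3 fell as well (-0.60, adjusted p = 4.69e-05), whereas Prkg1 did not pass against Day 0 (-0.28, adjusted p = 0.0615). This does not establish a difference between the Day 2 groups. Against control, Prkg1 (0.28, adjusted p = 0.386) and the endothelin receptor Ednrb (-0.22, adjusted p = 0.392) had an unadjusted p under 0.05 under compression and did not pass. Of 16 genes of the actomyosin that all cells carry, 5 rose, 3 fell and 8 did not pass in controls, among them the light chain Myl6 (0.50, adjusted p = 1.22e-05) and calponin 3, Cnn3 (-0.41, adjusted p = 6.28e-05).

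Markers of other cell types of the lung moved as follows. Of 9 mural cell and pericyte genes, 8 were tested, 1 rose, 3 fell and 4 did not pass in each Day 2 group against Day 0, and their summed level was 466 to 733 CPM at Day 0, 332 to 423 CPM in controls and 341 to 443 CPM under compression. Pdgfrb (log2 fold change -1.31, adjusted p = 5.55e-05) and Rgs5 (-1.57, adjusted p = 6.55e-05) fell in controls, and Ndufa4l2 rose (1.65, adjusted p = 0.000119). All 7 endothelial genes fell in both groups, from a summed 284 to 477 CPM at Day 0 to 49.4 to 98.4 CPM in controls and 68.6 to 87.9 CPM under compression. Of 12 mesenchymal genes, 1 rose and 6 fell in controls, and of 8 epithelial genes 5 rose and 1 fell. Their part in the changes of Actg2, Smtn and Myocd was not tested.

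Heart muscle genes, 16 in all with 11 tested, summed to 36.1 to 92.3 CPM at Day 0, 64.9 to 107 CPM in controls and 69.7 to 112 CPM under compression. In controls 1 of them rose, Actc1 (log2 fold change 0.73, adjusted p = 0.0118), and 10 did not pass. Under compression against Day 0, Myh7 rose (2.03, adjusted p = 0.0024), Hcn4 fell (-0.73, adjusted p = 0.00628) and the other 9, Actc1 among them (0.44, adjusted p = 0.0903), did not pass. Of the markers of working heart muscle, Myh6 had mean levels of 8.16, 16.4 and 10.9 CPM at Day 0, in controls and under compression, and the atrial light chain Myl7 5.04, 7.73 and 5.98 CPM. Nppa and Myl2 reached at most 0.0343 CPM in any library. Skeletal muscle genes, 15 with 5 tested, summed to 5.01 to 9.08 CPM at Day 0, 28.9 to 49.8 CPM in controls (28.9 to 32.2 CPM without control replicate 4) and 22.6 to 30.1 CPM under compression. In Day 2 libraries other than control replicate 4, most of this sum was Myh8. Myh8 rose from 2.51 ± 1.65 CPM to 21.2 ± 3.28 CPM in controls (log2 fold change 3.01, adjusted p = 2.86e-05). With control replicate 4 included, 4 of the 5 tested genes rose in controls, against 22.6% of all genes. Under compression 2 rose, against 26.6% of all genes. Myog, Myod1, Acta1 and Myh3 stood below 1 CPM in every library except control replicate 4. Between compression and control no gene of any of these lists passed the test. The share of heart and skeletal muscle in the levels of Acta2, Tagln, Des and Myocd was not tested.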

How the data were processed

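The deposited file holds unnormalized counts by gene symbol for the 12 libraries, made by the authors (0 columns had no sample). Per the labels' protocols, libraries were made with a KAPA mRNA HyperPrep kit. Per the submitters' processing notes, fastp, STAR and the mm10 build were used. The tool versions, counting step, annotation and strand setting were not given in the sources used. Groups and replicate numbers come from the labels.

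Counts were filtered with filterByExpr (min.count 10, min.total.count 15) and scaled with TMM in edgeR 4.0.16 (R 4.3.3). All 12 libraries entered 1 robust quasi-likelihood fit with the group as the only term, and p-values were adjusted by the Benjamini-Hochberg method over 15246 genes at a threshold of 0.05. Every adjusted p in the text is from this test unless another tool or a permutation test is named. CPM was computed on TMM-scaled library sizes, and log2 CPM a prior count of 2. Coordinates and exon lengths are from GENCODE vM21 (GRCm38), promoters from RefSeq (GRCm38.p6). Ratios were tested with exact permutation tests in SciPy 1.17.1. The fit was tested on simulated data. Alternatives were DESeq2 size factors, DESeq2 1.42.0, limma-voom with quality weights (limma 3.58.1), no filter on low counts, the replicate number as a block, only the 8 libraries compared, each library left out in turn, and compression replicates 2 and 3 summed.

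The members and lists were chosen with earlier results of these data known. All members are named, and of each other list up to 4 genes with the smallest p in controls against Day 0 and up to 2 in compression against control. The defining lung and muscle markers Nkx2-1, Myog, Myod1, Acta1, Myh3, Myh6, Myl7, Nppa, Myl2 and Pln were named after their values had been seen, as levels only. Lists of mesothelial, leukocyte, neuronal and liver markers were also counted.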

Additional observations from a re-analysis of the deposited data

Results flagged for a closer look

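In 2 of the 30 groups of 4 libraries checked for the members' CPM, a library stood apart from the others of its group by more than Dixon's 95% critical value. Chance alone gives about 1 such group in 20. Lmod1 stood at 2.35 CPM in Day 0 replicate 1, the lowest of its group, and the next library was at 3.99 CPM, a gap of 0.935 of the range. Myh11 stood at 87.9 CPM in control replicate 1, the highest of its group, and the next library was at 51.8 CPM, a gap of 0.854 of the range. The causes were not tested.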

How the results depend on the processing

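Of 440 fold changes of single members under alternatives, 387 kept their direction and side of the threshold, 12 came to pass it, 15 no longer passed and 26 changed sign, all of these at small differences that had not passed; the cause was not tested. Actg2, Tagln and Smtn against Day 0 in both Day 2 groups, Lmod1 in controls and Myocd under compression passed in every alternative run. In controls against Day 0, limma-voom called 8 members (5 by edgeR), and with a library left out 4 to 7 were called. Under compression against Day 0, 6 were called, 4 to 6 with a library left out and 4 with compression replicates 2 and 3 summed. Between compression and control 0 members were called in every alternative run, and over all genes DESeq2 called 69, limma-voom 1958, a fit of only the 8 libraries compared 4, and edgeR 0 to 53 with a library left out. Over all genes, leaving out a library gave 5438 to 5982 calls in controls and 7597 at most (6555 at least) under compression against Day 0.

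Signs that changed with a library left out were those of Des in controls (-0.06 to 0.14) and under compression (-0.09 to 0.08) against Day 0. Between compression and control they were those of Acta2 (-0.03 to 0.16), Actg2 (-0.08 to 0.17), Tagln (-0.09 to 0.14), Cnn1 (-0.05 to 0.23), Myh11 (-0.43 to 0.09), Smtn (-0.02 to 0.10) and Des (-0.16 to 0.04). With limma-voom, Des under compression against Day 0 was 0.02 and Tagln between compression and control 0.15.

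With the replicate number as a block, 5 members were called in controls, 6 under compression and 0 between them, and Tagln between compression and control was 0.00. The labels do not say that a number marks a shared origin. Deviations of same-numbered libraries correlated from -0.18 to 0.17, and when each library was set against the 4 of another group (Day 0 against both Day 2 groups, controls against compression) its own number was best in 5 of 12 cases, so the numbers were not taken to pair the samples. Lmod1 had the fewest reads of the members, 55 in its lowest library.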
